A study of Saccharomyces cerevisiae with 18 samples.

Results

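The 8 genes described here encode the yeast enzymes that carry carbon out of 2-carbon compounds and back to sugar: FBP1, PCK1, ICL1, MLS1, MDH2, MDH3, CIT2 and IDP2. They were taken as the listed genes with a probe set annotated to that gene alone, and were 8 of the 5656 genes with such a probe set on the Affymetrix yeast S98 array. All 8 had 1 such probe set each and passed the filter on low values, as did 5545 genes in all. RNA came from Saccharomyces cerevisiae W303-1A in exponential growth in synthetic complete medium, with either ethanol or glucose as the carbon source. The question was how the dosage of FAR1, the gene of an inhibitor of cyclin-dependent kinase, alters transcription on each carbon source.

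There were 18 arrays in 6 groups of 3 independent cultures. The FAR1-overexpressing strain (FAR1OE) carried the plasmid pTet-FAR1-15Myc, which encodes a Myc-tagged Far1, and the deletion strain (far1Δ) had FAR1 disrupted with a his3 marker. Each was set against wild type (WT), in ethanol and in glucose. All 3 strains share the W303-1A markers, which are mutations in ADE2, HIS3, LEU2, TRP1, URA3 and CAN1, and are given as MATa. The labels mention no empty plasmid or HIS3 control for WT, so plasmid or marker and FAR1 dosage cannot be told apart. They do not say whether a strain was more than 1 isolate.

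Yeast growing on ethanol converts it to acetyl-CoA and has to build every larger molecule from that. The glyoxylate cycle, with isocitrate lyase and malate synthase as its own steps, bypasses the decarboxylations of the tricarboxylic acid cycle and yields 4-carbon acids. Phosphoenolpyruvate carboxykinase and fructose-1,6-bisphosphatase then take the steps of gluconeogenesis that glycolysis cannot run in reverse. In this yeast ICL1, MLS1, PCK1 and FBP1, the genes of these enzymes, are known as textbook cases of glucose repression, relieved through the kinase Snf1 and the activators Cat8 and Sip4. All values below are array signals of RNA, and enzyme levels or fluxes were not measured.

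The median deposited intensity per array was 8.5 to 23.8, and correlations between arrays of a group were 0.915 to 0.970. FAR1 (YJL157C) checked the labels: its intensity was 2554.1, 2722.3 and 3.3 in FAR1OE ethanol and 4.8, 5.3 and 2595.7 in far1Δ ethanol, against 29.3, 17.9 and 25.5 in WT ethanol. In glucose it was 1019.5, 966.2 and 556.9 in FAR1OE and 4.9, 7.0 and 4.1 in far1Δ, against 19.7, 27.3 and 22.8 in WT. Array 3 of FAR1OE ethanol and array 3 of far1Δ ethanol thus went against their labels. The ethanol changes of the 8 genes in FAR1OE and far1Δ are also given without that pair. So are their differences from WT in ethanol and the differences of the ethanol change between strains. Sums of squares, group orders, isozyme differences, list counts and medians, and nearest profiles are given on all 18 arrays only. On arrays 1 and 3 of FAR1OE glucose the 5′ actin probe set read 4.8 and 2.6, with log2 ratios of 3′ to 5′ actin signal of 8.06 and 8.87, against 0.32 to 1.04 on the 16 other arrays. For the spike-in BioDn, 5′ signal divided by 3′ signal was 0.169 to 0.231 on 7 arrays, namely the 6 WT arrays and array 1 of far1Δ glucose, and 0.369 to 0.575 on the 11 others. Genes particular to the alpha mating type were also at 545.3 to 3673.2 in summed intensity over 4 probe sets on all arrays, while 8 probe sets for genes particular to the a type summed to 11.7 to 36.7, although the strains are labelled MATa.

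Changes are differences of log2(intensity + 0.4) after quantile normalization. They were tested with limma on all 18 arrays, and a gene was called where its p-value, adjusted by Benjamini-Hochberg over the 5545 genes, was under 0.05. All 8 genes were higher in ethanol than in glucose in every strain, while 17.4% of the genes tested were called higher in FAR1OE, 21.7% in far1Δ and 22.4% in WT. The median log2 change of the 8 was 6.44 in FAR1OE, 6.82 in far1Δ and 6.97 in WT, against −0.09, −0.01 and 0.0015 over all genes tested. Adjusted p-values ran up to 3.51e-05 in FAR1OE, 7.32e-07 in far1Δ and 1.09e-06 in WT. The size of the change divided the genes into 2 sets: FBP1, PCK1, ICL1, MLS1 and IDP2 changed by 5.48 or more on the log2 scale, and MDH2, CIT2 and MDH3 by 0.92 to 4.14.

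FBP1 (YLR377C), fructose-1,6-bisphosphatase, the last irreversible step before glucose 6-phosphate, had intensities of 744.3, 673.3 and 734.0 in FAR1OE ethanol, 622.6, 1032.1 and 725.1 in far1Δ ethanol and 769.3, 712.8 and 965.7 in WT ethanol. In glucose the same probe set read 3.6, 1.8 and 2.7 in FAR1OE, 1.4, 1.8 and 2.3 in far1Δ and 2.1, 1.4 and 1.2 in WT. The ethanol and glucose groups were far apart, and on the glucose arrays FBP1 lay between the 16.3rd and 33.9th percentile of all probe sets, and whether that signal exceeded background was not tested. Its log2 change in ethanol was 7.50 in FAR1OE, 8.43 in far1Δ and 8.51 in WT (SE 0.28 each), the last a 364-fold difference with a 95% interval of 243 to 545. With a pseudocount of 2.9 instead of 0.4 the WT fold was 168, so the fold rests on how the low glucose signal is treated.

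PCK1 (YKR097W), phosphoenolpyruvate carboxykinase, makes phosphoenolpyruvate from oxaloacetate and so opens gluconeogenesis. It read 2378.8, 2415.1 and 1928.4 in FAR1OE ethanol, 1436.0, 2354.7 and 1950.5 in far1Δ ethanol and 1893.8, 1792.3 and 2481.1 in WT ethanol. In glucose it read 16.1, 11.2 and 11.1 in FAR1OE, 11.9, 10.9 and 8.7 in far1Δ and 11.7, 4.8 and 8.8 in WT. The lowest ethanol array, in far1Δ, stood far above the highest glucose array, in FAR1OE. The log2 change was 7.40 in FAR1OE, 7.51 in far1Δ and 7.56 in WT (SE 0.30 each), a 188-fold difference in WT with a 95% interval of 122 to 290.

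ICL1 (YER065C), isocitrate lyase, splits isocitrate into succinate and glyoxylate at the entry to the glyoxylate bypass. Its intensities were 2480.8, 2465.2 and 2206.9 in FAR1OE ethanol, 1993.8, 2621.8 and 2181.5 in far1Δ ethanol and 2170.3, 2319.1 and 2815.1 in WT ethanol. In glucose they were 12.4, 11.8 and 6.7 in FAR1OE, 6.8, 8.1 and 7.6 in far1Δ and 6.4, 5.5 and 7.2 in WT. ICL1 had a smaller standard error than any of the other members but MDH3, and its change was 7.78 in FAR1OE, 8.26 in far1Δ and 8.09 in WT (SE 0.17 each). The WT fold was 272, with a 95% interval of 213 to 347.

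MLS1 (YNL117W), malate synthase, joins the glyoxylate from isocitrate lyase to acetyl-CoA. It read 2090.5, 2441.2 and 2097.9 in FAR1OE ethanol, 1683.1, 2461.4 and 1948.4 in far1Δ ethanol and 1682.3, 1718.0 and 2395.0 in WT ethanol. In glucose it read 4.4, 2.4 and 4.0 in FAR1OE, 3.8, 1.4 and 2.7 in far1Δ and 3.0, 1.7 and 2.5 in WT. MLS1 had the largest rise in ethanol of the 5545 genes in each strain, at 8.97 in FAR1OE, 9.63 in far1Δ and 9.31 in WT (SE 0.34 each). It also ranked 1st or 2nd in each strain under all alternatives tried. Its glucose signal lay at the 15.3rd to 36.3rd percentile of its array and was not tested against background, so its rank and fold rest on that low signal, and the WT fold of 637 fell to 353 with the larger pseudocount.

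IDP2 (YLR174W), the cytosolic isocitrate dehydrogenase that makes NADPH, read 448.2, 468.3 and 332.0 in FAR1OE ethanol, 355.7, 535.8 and 479.4 in far1Δ ethanol and 376.0, 358.7 and 465.9 in WT ethanol. In glucose it read 6.3, 7.1 and 7.1 in FAR1OE, 6.2, 4.9 and 4.7 in far1Δ and 1.8, 3.7 and 6.2 in WT. The 3 WT glucose arrays spanned more than the other glucose groups did. Its log2 change was 5.48 in FAR1OE, 6.13 in far1Δ and 6.39 in WT (SE 0.29 each). The WT fold was 83.6 and became 53.2 with the larger pseudocount.

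**Figure D1:**
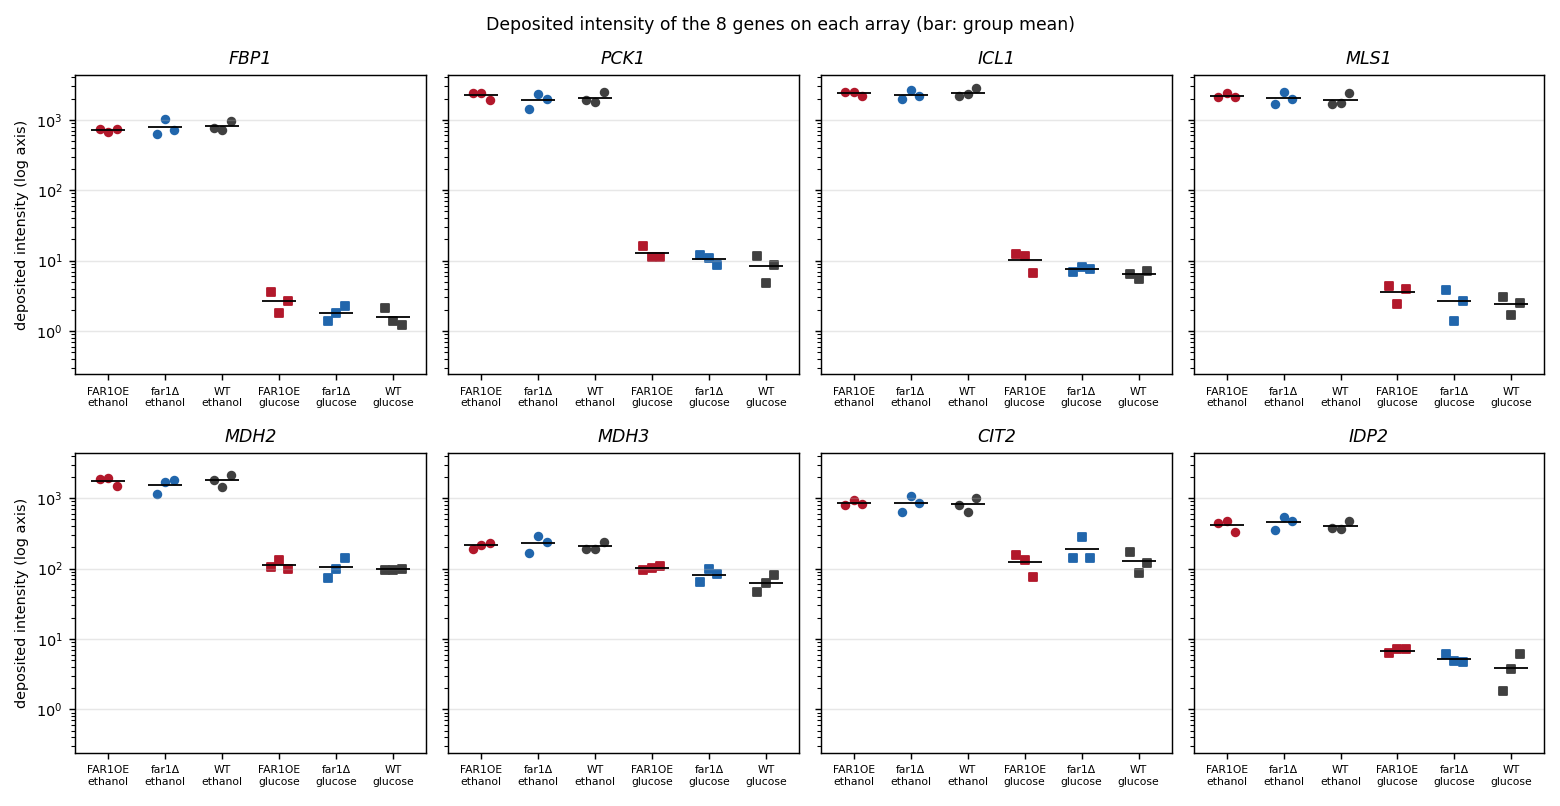
Deposited intensity (vertical log axis, array units) of each of the 8 genes on the 18 arrays, 3 points per group and a bar at the group mean, with FAR1OE in red, far1Δ in blue and WT in grey, and ethanol groups to the left of glucose groups. Every ethanol array lies above every glucose array for all 8 genes, and MDH2, MDH3 and CIT2 start from glucose signals of 46.1 to 282.4, while the other 5 lie between 1.2 and 16.1.

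MDH2, MDH3 and CIT2 differed from the other 5 genes in being well measured in glucose, at the 82.6th to 93.3rd percentile of their arrays. MDH2 (YOL126C), the cytosolic malate dehydrogenase that supplies oxaloacetate to PCK1, read 1883.5, 1944.8 and 1481.6 in FAR1OE ethanol, 1129.2, 1689.5 and 1828.8 in far1Δ ethanol and 1825.3, 1445.2 and 2116.0 in WT ethanol. In glucose it read 104.9, 131.1 and 99.8 in FAR1OE, 73.1, 99.3 and 143.1 in far1Δ and 96.1, 95.5 and 99.4 in WT. It rose by 4.14 in FAR1OE, 4.06 in far1Δ and 3.83 in WT on the log2 scale (SE 0.22 each), the last 14.2-fold with a 95% interval of 10.3 to 19.5.

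CIT2 (YCR005C), the peroxisomal citrate synthase of the glyoxylate cycle and a known target of the retrograde signal from mitochondria, read 789.2, 931.2 and 829.9 in FAR1OE ethanol, 637.2, 1070.0 and 845.0 in far1Δ ethanol and 796.1, 625.7 and 1012.8 in WT ethanol. In glucose it read 156.9, 133.1 and 76.3 in FAR1OE, 143.1, 282.4 and 141.5 in far1Δ and 174.2, 86.2 and 120.5 in WT. On the normalized log2 scale the glucose values of CIT2 spread more in FAR1OE (SD 0.48) and WT (SD 0.54) than in far1Δ (SD 0.23). Its log2 change was 2.87 in FAR1OE, 2.34 in far1Δ and 2.24 in WT (SE 0.24 each), the last 4.72-fold with a 95% interval of 3.33 to 6.71.

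MDH3 (YDL078C), the peroxisomal malate dehydrogenase, changed least of the 8. It read 192.2, 216.4 and 230.0 in FAR1OE ethanol, 164.8, 288.7 and 234.2 in far1Δ ethanol and 190.7, 190.2 and 241.6 in WT ethanol. In glucose it read 94.5, 103.3 and 107.6 in FAR1OE, 63.8, 97.5 and 83.9 in far1Δ and 46.1, 62.9 and 80.4 in WT. The groups of the 2 carbon sources did not overlap, and the log2 change was 0.92 in FAR1OE, 1.27 in far1Δ and 1.23 in WT (SE 0.14 each), the last 2.34-fold with a 95% interval of 1.92 to 2.86.

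**Figure D2:**
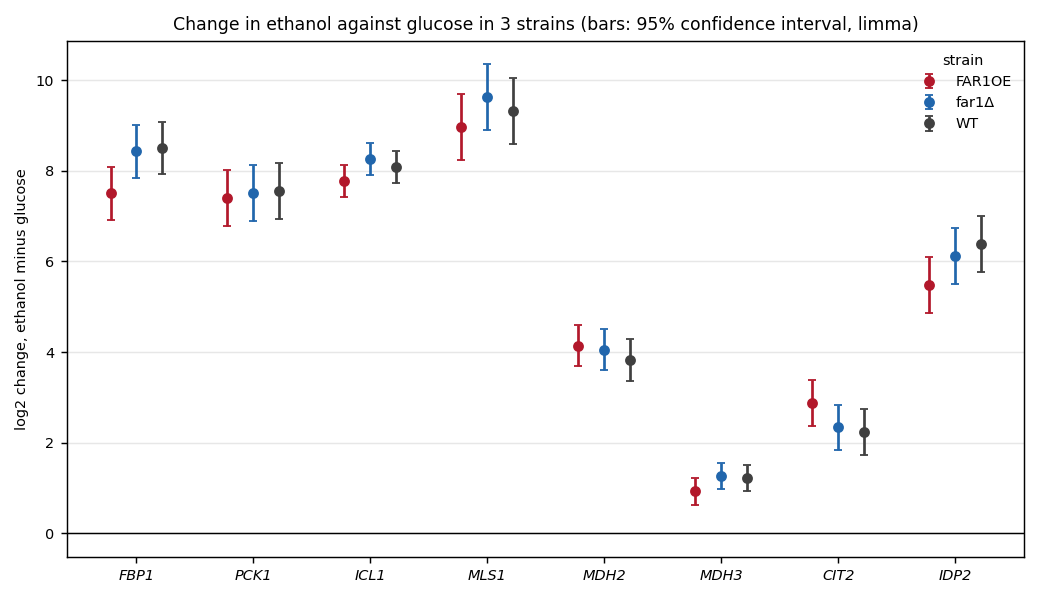
Log2 change in ethanol against glucose (vertical axis) of the 8 genes in FAR1OE (red), far1Δ (blue) and WT (grey), with bars for the 95% confidence interval from limma. The changes run from 0.92 for MDH3 in FAR1OE to 9.63 for MLS1 in far1Δ, and no interval reaches 0.

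MLS1, FBP1, ICL1, PCK1 and IDP2 ranked among the larger rises, while MDH3 ranked 627th in FAR1OE, 484th in far1Δ and 535th in WT of 5545 genes. A log2 change above 6 was reached by 17 genes in FAR1OE, 26 in far1Δ and 23 in WT, and 4, 5 and 5 of them were members (IDP2 fell short in FAR1OE). The calls of all 8 in each strain held in the 432 alternatives computed for these changes, which included each array left out in turn, the deposited scale and the fit without the pair of ethanol arrays. Without array 3 of FAR1OE ethanol and of far1Δ ethanol the log2 changes ran from 0.81 to 9.07 in FAR1OE and 1.28 to 9.61 in far1Δ. Without the 2 FAR1OE glucose arrays of low 5′ actin signal the FAR1OE changes were 8.31 for FBP1, 9.81 for MLS1 and 5.75 for IDP2.

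Carbon source accounted for 98.1% to 99.7% of the sum of squares of the normalized log2 values over the 18 arrays for FBP1, PCK1, ICL1, MLS1, MDH2 and IDP2. It accounted for 93.5% for MDH3 and 93.4% for CIT2. Strain accounted for 0.0629% for ICL1 up to 1.00% for CIT2, and the interaction of strain and carbon source for 0.0073% for PCK1 up to 1.74% for MDH3. Arrays within groups accounted for 0.177% for ICL1 up to 4.40% for CIT2. In the order of the 6 group means, all 3 ethanol groups stood above all 3 glucose groups for each of the 8 genes, and no ethanol array was as low as a glucose array, as held for 12.2% of all genes tested. Neighbours within a carbon source overlapped except for FBP1 in ethanol, where far1Δ lay above FAR1OE, and MLS1 in ethanol, where far1Δ lay above WT. Over all genes these 2 pairs of groups failed to overlap in 9.31% and 13.3%, so the 2 exceptions are no result about the members. The sums of squares and the order include the pair of ethanol arrays that went against their labels. They were not computed without it, so the overlaps stated are those with the pair included.

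No difference between strains was called in these genes. In ethanol, 0 of the 8 were called in FAR1OE against WT, where 0.379% of all genes were called, and 0 in far1Δ against WT, where 0.0721% were. The FAR1OE differences ran from −0.21 for FBP1 to 0.26 for MLS1, with the lowest adjusted p at 0.839 and 95% intervals between −0.80 and 0.98. The far1Δ differences ran from −0.13 for MDH2 to 0.19 for MLS1, with the lowest adjusted p at 0.967 and 95% intervals between −0.63 and 0.91. These intervals leave room for differences of just under 2-fold in single genes. Without the pair of arrays that went against their labels, FAR1OE differed from WT by −0.27 to 0.30 and far1Δ by −0.36 to 0.12, again with 0 of 8 called, and the intervals widened to −0.97 to 1.15 and −0.85 to 0.97.

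In glucose, 0 of the 8 were called in far1Δ against WT, with 1.57% of all genes called. The differences ran from −0.36 for MDH2 to 0.35 for IDP2, the lowest adjusted p was 0.506, and the 95% intervals lay between −0.85 and 0.97. In FAR1OE against WT in glucose, 7.39% of all genes were called and again 0 of the 8. There 6 of the 8 were higher in FAR1OE by point estimate and the range was wider, from −0.53 for CIT2 to 0.87 for IDP2. The median difference was 0.32 for the 8 and 0.07 over all genes. The share of all genes higher by point estimate was not computed, so nothing particular to the members is read from that count. IDP2 was higher by 0.87 ± 0.29 (SE, 95% interval 0.25 to 1.49, adjusted p 0.0812 with limma) and FBP1 by 0.79 ± 0.28 (SE, 95% interval 0.21 to 1.37, adjusted p 0.0926 with limma). MLS1 differed by 0.60 ± 0.34 and CIT2 by −0.53 ± 0.24 (SE, adjusted p 0.320 and 0.195 with limma).

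**Figure D3:**
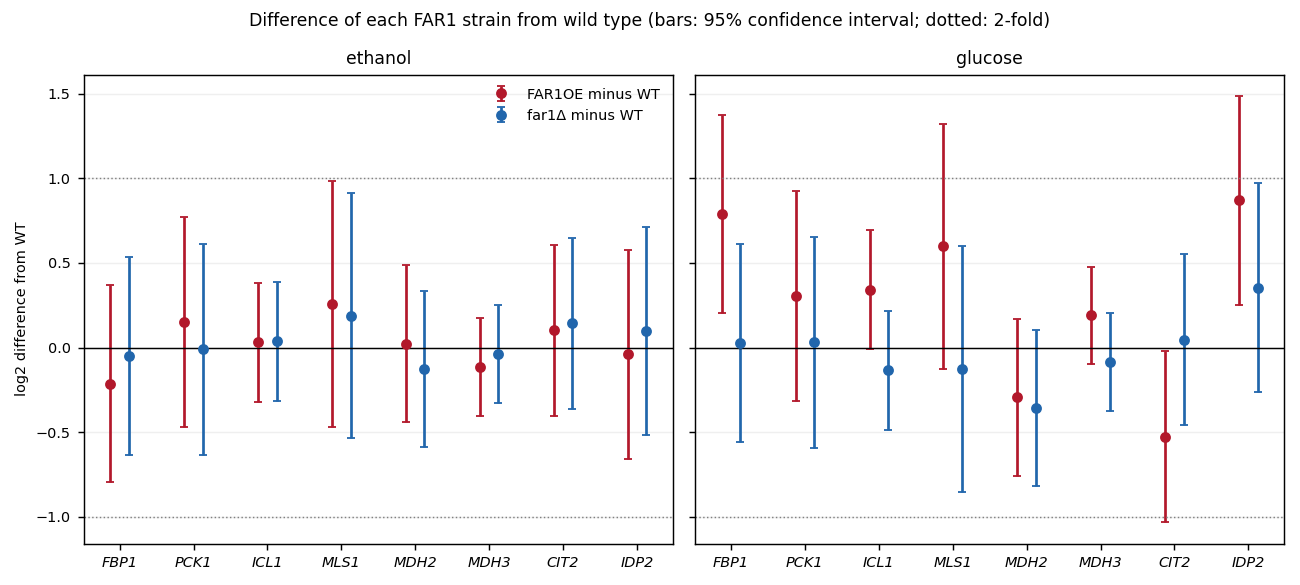
Log2 difference of FAR1OE (red) and far1Δ (blue) from WT (vertical axis) for the 8 genes, in ethanol on the left and glucose on the right, with bars for the 95% confidence interval from limma and dotted lines at a 2-fold difference. All intervals in ethanol lie between −0.80 and 0.98, and the highest estimates in glucose are those of IDP2 at 0.87 and FBP1 at 0.79 in FAR1OE.

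The FAR1OE glucose estimates of FBP1 and MLS1 turned on single FAR1OE arrays, and that of IDP2 also moved with which WT array was left out. Relative to the mean of the WT glucose arrays, the normalized log2 value of FBP1 was 1.43 and 0.99 on arrays 1 and 3, those of low 5′ actin signal, and −0.06 on array 2. MLS1 was at 1.12 and 0.98 on arrays 1 and 3 and −0.30 on array 2, and IDP2 at 0.97, 1.09 and 0.55 on arrays 1, 3 and 2. For FBP1, MLS1, IDP2 and MDH3, arrays 1 and 3 were the highest of the 9 glucose arrays. The share of all genes with that order was not computed, so nothing particular to the members is read from it. With array 2 left out, FBP1 (1.21, adjusted p 0.00124), MLS1 (1.05, adjusted p 0.0336) and IDP2 (1.03, adjusted p 0.0465) were called higher in FAR1OE by limma. The count of all genes called rose as well in that fit, from 410 to 663, so nothing particular to the members is read from these calls. With arrays 1 and 3 left out, FBP1 differed from WT by −0.06, MLS1 by −0.30 and IDP2 by 0.55, and none was called, but this left 1 FAR1OE glucose array, whose spread was taken from the remaining groups. IDP2 was also called without WT glucose array 3 (1.29, adjusted p 0.00477 with limma) and on the deposited scale (0.89, adjusted p 0.0450 with limma). It was at 0.42 without WT glucose array 1 (adjusted p 0.322) and at 0.52 with array medians centred (adjusted p 0.187), where FBP1 was at 0.27 and MLS1 at 0.13.

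**Figure D4:**
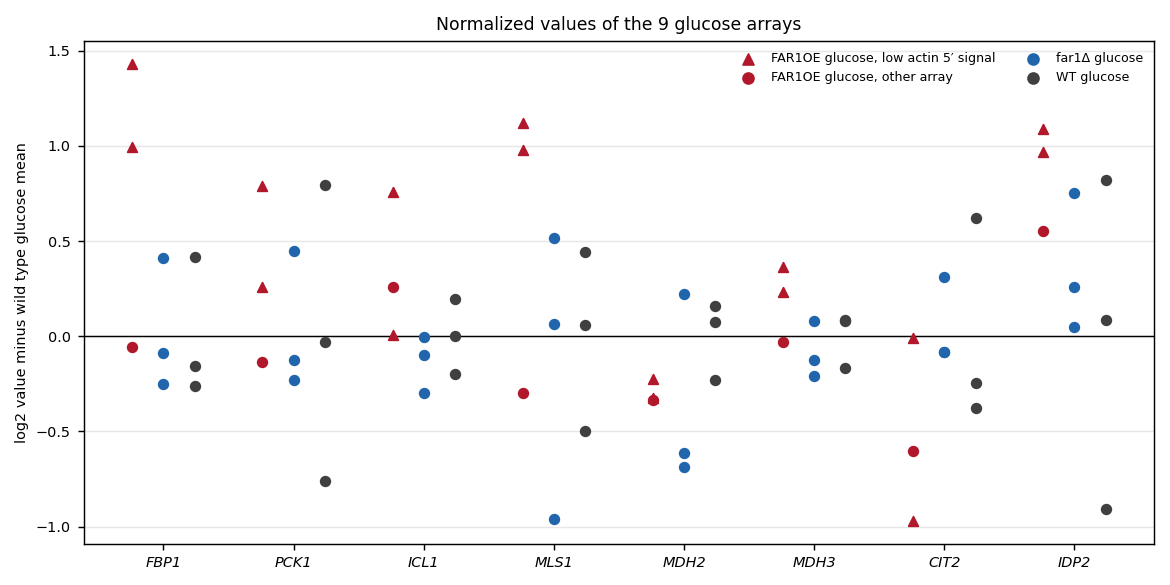
Normalized log2 value minus the WT glucose mean (vertical axis) of the 8 genes on the 9 glucose arrays, with FAR1OE in red, far1Δ in blue and WT in grey, and triangles for FAR1OE arrays 1 and 3, whose 5′ actin signal was low. The triangles stand at 1.43 and 0.99 for FBP1 and at 1.12 and 0.98 for MLS1, and the remaining FAR1OE array lies at −0.06 and −0.30.

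Whether the ethanol change itself differed between strains was tested as the difference of the 2 changes, using the same arrays. None of the 8 was called for FAR1OE minus WT, where 0.18% of all genes were, nor for far1Δ minus WT, where limma called 0% of genes although 460 had an unadjusted p under 0.05. For FAR1OE the differences ran from −1.003 for FBP1 (adjusted p 0.268 with limma) to 0.63 for CIT2, and for far1Δ from −0.26 to 0.32. Single 95% intervals reached from −1.83 to 1.35 in FAR1OE and from −1.13 to 1.34 in far1Δ, so 2-fold differences in single genes lie within some of them. Without the pair of ethanol arrays that went against their labels, the differences ran from −1.06 to 0.62 in FAR1OE and from −0.31 to 0.24 in far1Δ. None was called (lowest adjusted p 0.267 and 0.922 with limma). The intervals then reached from −1.99 to 1.42 in FAR1OE and from −1.28 to 1.39 in far1Δ. Without FAR1OE glucose array 2 the FBP1 difference was −1.42 and was called (adjusted p 0.0101 with limma), and without arrays 1 and 3 it was −0.15.

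MDH2, MDH3, CIT2 and IDP2 each have a mitochondrial counterpart on the array, which allowed the change of 1 isozyme to be set against that of the other within each strain. MDH1, the mitochondrial malate dehydrogenase, rose by 2.34 in FAR1OE, 2.91 in far1Δ and 2.68 in WT on the log2 scale. The log2 change of MDH2 exceeded that of MDH1 by 1.81 in FAR1OE, 1.15 in far1Δ and 1.15 in WT. The change of MDH3 was smaller than that of MDH1, by −1.42 in FAR1OE, −1.63 in far1Δ and −1.45 in WT. The array values of these differences did not overlap between carbon sources in any strain, for which the exact permutation test gives 0.1, its smallest p for 3 arrays against 3.

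CIT1, the mitochondrial citrate synthase, rose by 2.47 in FAR1OE, 3.28 in far1Δ and 2.79 in WT. The CIT2 change minus the CIT1 change was 0.40 in FAR1OE, −0.94 in far1Δ and −0.55 in WT, and the array values overlapped in FAR1OE and in WT (exact permutation p 0.5 and 0.2). These differences include the pair of ethanol arrays that went against their labels. The normalized log2 value of CIT1 was 9.89 on array 3 of FAR1OE ethanol, against 10.58 and 10.48 on arrays 1 and 2. In far1Δ ethanol it was 10.77 on array 3, against 10.11 and 10.25. IDP1, the mitochondrial NADP-dependent isocitrate dehydrogenase, had log2 changes of −0.14 in FAR1OE and 0.06 in WT that were not called, and fell by 0.63 in far1Δ (adjusted p 0.0234 with limma, called in 15 of 18 alternatives). The log2 change of IDP2 exceeded that of IDP1 by 5.61 in FAR1OE, 6.76 in far1Δ and 6.32 in WT, with no overlap of array values between carbon sources (exact permutation p 0.1 each). The sizes rest on the low glucose signal of IDP2, which was not tested against background. ACO1, the aconitase that serves both cycles, rose by 1.67, 1.93 and 1.56 in FAR1OE, far1Δ and WT.

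Of the 10 partner isozymes tested, which also hold isocitrate dehydrogenase subunits and paralogs of the members, 8 were called higher in each strain, with medians of 2.18 in FAR1OE, 2.22 in far1Δ and 2.11 in WT. None was called lower in FAR1OE or WT, and IDP1 was in far1Δ. With array medians centred, 1 was called lower in FAR1OE too, and on the deposited scale none was in far1Δ. Among all genes tested, 17.4% were called higher and 22.8% lower in FAR1OE, 21.7% and 21.2% in far1Δ and 22.4% and 20.9% in WT. The largest rises were those of CIT3 (4.37, 4.86 and 4.29 in FAR1OE, far1Δ and WT), a minor mitochondrial citrate synthase, and ICL2 (3.06, 3.71 and 3.05), a mitochondrial methylisocitrate lyase related to ICL1. DAL7, a malate synthase of allantoin degradation related to MLS1, was not called in any strain (−0.65, −0.52 and −0.34). Cross-hybridization between these paralogs was not tested.

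Genes of the steps that oppose gluconeogenesis, or refill its oxaloacetate, went both ways. Of 10 tested, 3 were called higher and 5 lower in each strain, against the shares of all genes given above, and the medians were −0.60 in FAR1OE, −0.50 in far1Δ and −0.44 in WT. The WT count depended on the scaling, with 4 higher and 2 lower on the deposited scale (median −0.04) and 3 and 6 with array medians centred (median −0.78). CDC19, the main pyruvate kinase, fell by 2.23 in FAR1OE, 2.16 in far1Δ and 2.18 in WT. PFK27, a kinase that makes fructose 2,6-bisphosphate, the inhibitor of Fbp1, fell by 1.83, 1.72 and 2.40 in FAR1OE, far1Δ and WT. PYC1, a pyruvate carboxylase, rose by 1.73, 2.02 and 1.77, PFK26, the other such kinase, by 1.09, 1.99 and 0.86, and FBP26, fructose-2,6-bisphosphatase, by 0.79, 1.55 and 1.49. PFK1, a subunit of the phosphofructokinase that opposes FBP1, was called lower in each strain. On the deposited scale the WT changes of PFK1 (−0.37), PFK2 (−0.17) and MAE1 (−0.26) were not called.

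The reversible steps shared by glycolysis and gluconeogenesis did not rise with the 8 enzymes. Of 9 tested, 0 were called higher and 5 lower in FAR1OE, 1 and 7 in far1Δ and 1 and 5 in WT, with medians of −0.60, −0.61 and −0.37. Among all genes 22.8%, 21.2% and 20.9% were called lower. The lower calls numbered 4, 7 and 3 on the deposited scale and 8, 8 and 7 with array medians centred, where the WT median was −1.20. ENO2, the glucose-grown form of enolase, fell by 2.52 in FAR1OE, 1.99 in far1Δ and 1.51 in WT. GPM1, phosphoglycerate mutase, fell by 1.28, 1.71 and 1.47. TDH1, a glyceraldehyde-3-phosphate dehydrogenase, rose by 1.01 in far1Δ and 0.87 in WT, called in 16 and 12 of 18 alternatives, and had a change of −0.27 in FAR1OE that was not called. The fall of TDH3 in WT (−0.29, adjusted p 0.0494 with limma) was absent on the deposited scale (0.00253).

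**Figure D5:**
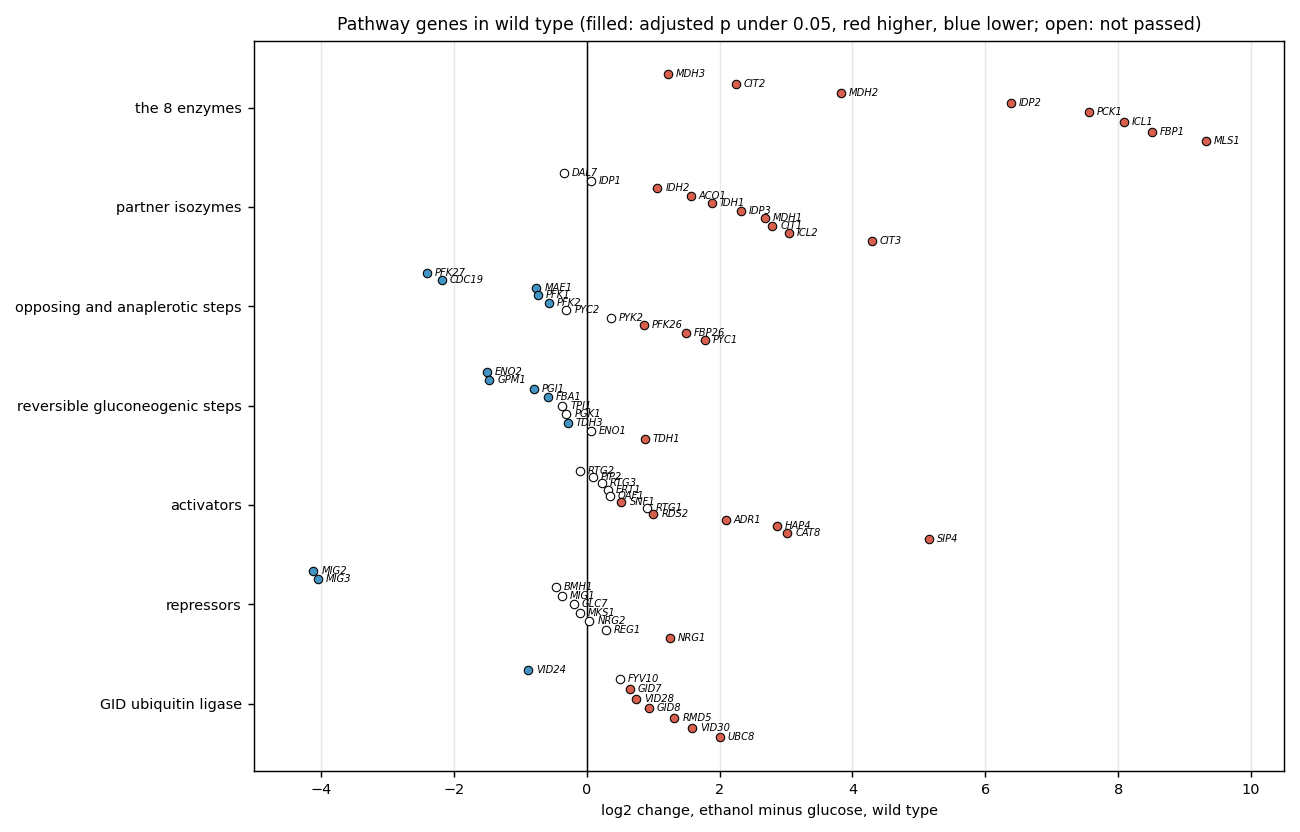
Log2 change in ethanol against glucose in WT (horizontal axis) of each tested gene of 7 lists, 1 row block per list, with red for genes called higher, blue for genes called lower and white for those not called. The 8 enzymes lie between 1.23 and 9.31, to the right of most genes of the other lists, and MIG2 and MIG3 lie farthest left at −4.11 and −4.05.

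The regulators known to act on these promoters moved unevenly. Among 12 activators, 6 were called higher in FAR1OE, 7 in far1Δ and 6 in WT and 0 lower, with medians of 0.51, 0.56 and 0.72, while 17.4%, 21.7% and 22.4% of all genes were called higher. On the deposited scale 9 were higher in WT, with a median of 1.34. SIP4, which binds the carbon source response element, rose by 4.52 in FAR1OE, 4.98 in far1Δ and 5.14 in WT. CAT8, the main activator of gluconeogenic genes, rose by 3.08, 3.87 and 3.02. The RTG1, RTG2 and RTG3 genes of the retrograde pathway, which controls CIT2, were not called in any strain.

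Among 9 repressors and their partners, 2 were called higher and 2 lower in FAR1OE, 2 and 3 in far1Δ and 1 and 2 in WT, against 17.4% to 22.4% of all genes called higher and 20.9% to 22.8% called lower, so nothing particular to the list is read from the counts. MIG2 fell by 4.17, 3.67 and 4.11 and MIG3 by 3.72, 4.15 and 4.05 in FAR1OE, far1Δ and WT. MIG1, the repressor that Snf1 phosphorylates, was called lower in far1Δ at −0.71 and not in FAR1OE or WT, where its changes were 0.08 and −0.38, and the difference from WT was not called for either strain. NRG1, a repressor of glucose-repressed genes, rose by 1.89 in far1Δ and 1.25 in WT, the last called in 10 of 18 alternatives. Its change in FAR1OE was not called. The Glc7 phosphatase gene GLC7, read from the brighter of its 2 probe sets, rose by 0.50 in FAR1OE. It was called in 10 of 18 alternatives, over which its change ran from 0.13 to 1.77. The regulatory subunit of Glc7, REG1, rose by 0.50 in FAR1OE and 0.48 in far1Δ, called in 15 and 12 of 18. The list medians were 0.08 in FAR1OE, 0.05 in far1Δ and −0.20 in WT, and their sign changed with the scaling, as at 0.43 in WT on the deposited scale and −0.34 in far1Δ with array medians centred.

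The GID ubiquitin ligase is known to send Fbp1, Pck1, Icl1 and Mdh2 for degradation once glucose returns. Of its 8 genes, 5 were called higher in FAR1OE and 6 each in far1Δ and WT, with medians of 0.77, 0.87 and 0.84, while 17.4%, 21.7% and 22.4% of all genes were called higher. On the deposited scale 7 were higher in each strain, with medians of 1.20, 1.29 and 1.55. UBC8, its ubiquitin-conjugating enzyme, rose by 1.33 in FAR1OE, 1.57 in far1Δ and 2.00 in WT, and VID30, a subunit, by 0.90, 1.54 and 1.59. RMD5, the catalytic subunit, rose by 1.01 in FAR1OE and 1.32 in WT and had a change of 0.44 in far1Δ that was not called. VID24, the subunit that recognises these substrates and is known to be made when glucose is added, was called lower in each, at −0.98, −0.77 and −0.88, though not on the deposited scale.

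Of the 58 genes tested in these lists, 3 were called in FAR1OE against WT in glucose (5.17%, against 7.39% of all genes) and 2 in far1Δ against WT in glucose (3.45%, against 1.57%), so a few calls are near the background. In FAR1OE against WT these were NRG1 (2.08 ± 0.47, adjusted p 0.0121), TDH1 (1.07 ± 0.31, adjusted p 0.0460) and FBP26 (0.99 ± 0.18, adjusted p 0.00286). In far1Δ against WT these were RMD5 (1.00 ± 0.23, adjusted p 0.0364), and IDP1 (0.90 ± 0.21, adjusted p 0.0407), with SE and limma's adjusted p. Without FAR1OE glucose arrays 1 and 3, none of the FAR1OE calls held: FBP26 differed by 0.85 (adjusted p 0.177), NRG1 by 1.86 (adjusted p 0.298) and TDH1 by 0.78 (adjusted p 0.630). They were also lost with the BioDn split as a block, at adjusted p 0.398, 0.460 and 0.325, and so was IDP1 (adjusted p 0.271). RMD5 was lost without the pair of ethanol arrays (adjusted p 0.0506), and RMD5 and IDP1 were each called in 9 of 18 alternatives.

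The genes nearest to each member by profile were found as the smallest root mean square difference of centred log2 values over the 18 arrays, which share their carbon source contrast. ICL1 was nearest to FBP1 (0.32) and to PCK1 (0.39), with YIG1 next for both (0.36 and 0.41), and FBP1 was the second nearest to ICL1 (0.32) after YIG1 (0.29). MLS1 was nearest to JEN1, the lactate and pyruvate permease, at 0.51, and then to FBP1 at 0.68. MDH2 was nearest to SDH2, a succinate dehydrogenase subunit (0.34), and CSM4 (0.40). CIT2 was nearest to ISU1, a scaffold of iron-sulfur cluster assembly (0.28), and GPT2, a glycerol-3-phosphate acyltransferase (0.31). IDP2 was nearest to AGX1, which makes glycine from glyoxylate (0.37), and YGR067C (0.41). MDH3 was nearest to PEP4, the vacuolar proteinase A (0.13), and LSP1, an eisosome component (0.14).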

How the data were processed

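The deposited table holds 1 intensity per probe set and array, named with GCOS in the submitters' processing notes. The GCOS version, the signal algorithm and how arrays were scaled were not given in the sources used here, detection calls were not used here, and 1955 values were 0. Per the labels, biotin-labelled cRNA from total RNA was hybridized, 1 culture per array.

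Of 9335 probe sets, 60 were controls, 6504 named 1 gene, 328 several and 2443 none in the platform annotation given, and symbols were updated through RefSeq's table for 6504. From the deposited intensities, log2(intensity + 0.4) was computed, 0.4 being the 10th percentile of all values, and quantile-normalized over non-control probe sets. Probe sets above their array's 20th percentile on at least 3 arrays were kept, with the brightest per gene. limma 3.58.1 (R 4.3.3) was fitted on 6 group means with an intensity trend, and p-values were adjusted by Benjamini-Hochberg. The code was tested on simulated data. Confidence intervals are at 95% for single genes. The number of arrays limits the precision.

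The median change of all genes depended on the scaling: on the deposited scale it was 0.28 in FAR1OE, 0.36 in far1Δ and 0.66 in WT for ethanol against glucose, and 0.49 in FAR1OE and 0.40 in far1Δ against WT in glucose. Of all genes called, 43.2% in FAR1OE, 50.6% in far1Δ and 51.7% in WT were higher in ethanol, against 76.9%, 79.9% and 93.2% on the deposited scale. All strain comparisons share WT arrays.

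The members, the lists and the alternatives were chosen with earlier results of these data known. The text names all members, FAR1, MDH1, CIT1, IDP1 and ACO1, the 2 largest called rises and falls of each list per ethanol comparison, all list genes called between strains, and the 2 nearest profiles of each member. PFK1, PFK2, MAE1, DAL7, TDH3, MIG1 and the RTG genes were named after their values were seen. 1 listed gene is not reported here, and TDH2 had no probe set of its own. No sequences are shown.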

Additional observations from a re-analysis of the deposited data

How the results depend on the processing

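All 432 alternatives for the members' ethanol changes kept their direction and call. Of 959 for strain and difference values, 953 kept their side of the threshold, and the 6 others, all named above, passed it. The number of members called in FAR1OE against WT in glucose was 0, and 1 on the deposited scale. Leaving out each array in turn gave 0 to 3 there and 0 to 1 for the FAR1OE difference, while the ethanol comparisons stayed at 8 and the other strain comparisons at 0. Of 2232 alternatives for called list genes, 2069 kept the call, 162 lost it, and the TDH3 change in WT turned to 0.00253 on the deposited scale. Without the pair of ethanol arrays that went against their labels, FAR1 itself turned to 1.91 from −1.34 (FAR1OE, ethanol against glucose), to −2.16 from 1.01 (far1Δ against WT in ethanol) and to 2.63 from −0.62 (FAR1OE difference).

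Counts of all genes called moved more. In FAR1OE against WT the glucose count of 410 ranged over 20 (BioDn block) to 906 (deposited scale), with 62 without the 2 arrays of low 5′ actin signal and 94 with only the 2 groups in the fit. It was 169, 242, 184, 184 and 663 without WT glucose array 2, WT glucose array 1, FAR1OE glucose array 1, 3 or 2. The ethanol count of 21 ranged over 2 to 111, with 111 without the pair. The difference count of 10 ranged over 0 to 161, with 161 without FAR1OE glucose array 2. In far1Δ against WT the counts of 87 in glucose and 4 in ethanol ranged over 28 (without far1Δ glucose array 1) to 133 and 2 to 7. The FAR1OE ethanol count of 2231 was 1456 on the deposited scale and 1328 without the 2 low-actin arrays. The causes were not tested.

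Replicate numbers did not pair the arrays: same-numbered arrays correlated at −0.375 to 0.179 in their deviations, with 7 of 45 above 0.1, and 3 of 18 arrays were nearest to their own number. With the number as a replicate block, 8 members were called in each ethanol comparison and 0 in the others. The BioDn split as a block, chosen after seeing the data, leaves strain comparisons resting on 1 array. Low signals in glucose limit the folds of FBP1, PCK1, ICL1, MLS1 and IDP2, and whether these signals exceeded background was not tested.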
